A study of Mus musculus with 16 samples.

Results

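In stromal cells without the H2A deubiquitinase BAP1, the promoter levels of 2 Polycomb histone marks, ubiquitylated histone H2A (H2AK119ub1) and trimethylated histone H3 (H3K27me3), were set against each other. The data were 4 of the series' 16 chromatin immunoprecipitation sequencing (ChIP-seq) libraries, namely 2 libraries titled Bap1 cKO H2AK119-ub1 and 2 titled Bap1 cKO H3K27-me3. They were chosen by their titles. The cells were endosteal mesenchymal stromal cells (MSCs), the connective tissue cells of the inner bone surface, from C57BL/6J mice of the genotype Prx1-cre;Bap1fl/fl. Prx1-cre is a recombinase active in limb mesenchyme and its descendants, so the deletion is not limited to endosteal MSCs. The 4 matching libraries of Bap1 WT mice (Bap1fl/fl, with no cre named in the labels) served for comparison. The labels give neither sex nor age, nor whether replicates were separate animals, and the spread behind each p-value may therefore be technical. Bap1 itself was not analysed here, and nothing else checks the genotype labels.

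Polycomb group proteins keep developmental genes silent. Polycomb repressive complex 1 (PRC1) attaches ubiquitin to a lysine of histone H2A, BAP1 removes it, and Polycomb repressive complex 2 (PRC2) methylates a lysine of histone H3. Each complex can recognise the mark of the other, so both marks usually lie on the same promoters, which are rich in CpG dinucleotides.

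Counts were summed over the 4 kb around the start of each gene, 2 kb to each side, and are called promoter counts. Of 3925 genes in the deposited table, 3789 are autosomal, and 3761 of these had enough counts to be tested. Each autosomal gene of the table carries the authors' mark UP (1849 genes) or DOWN (1940), whose basis the labels do not state, so the table is a selection and "all promoters" below means those in it. The autosomal windows held 2340332 and 2838767 counts in the cKO H2AK119ub1 libraries and 1593303 and 1434251 in the H3K27me3 libraries, each read being counted in about 3 bins. The median promoter count was 272 and 322 for H2AK119ub1 and 147 and 126 for H3K27me3. Levels are in CPM, counts scaled to a common total over these windows, so they tell where one mark was high relative to the other, not how many nucleosomes carried each. For the marks of active promoters, H3K4me3 and H3K27ac, title and antibody field are swapped in the labels, and both are named here by title. The H3K4me3 levels of 13 stromal markers ran from Ly6a (10.1 and 4.72 CPM) to Vim (514 and 471 CPM). The 3 blood and endothelial markers measured lay within that range, namely Lyz2 (12.2 and 7.22 CPM), Cd34 (16.4 and 15.6 CPM) and Cd68 (22.6 and 30.0 CPM). Stromal markers at that low end included Thy1 (10.1 and 16.5 CPM), Eng (14.9 and 9.23 CPM), Col3a1 (19.5 and 15.6 CPM) and Col1a2 (38.8 and 31.5 CPM), so these levels do not separate the cell types.

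Whole chromosomes stood apart in every library, whatever its mark. Relative to the median of the chromosomes, the outer 1 kb flanks of the windows stood at 1.42 to 1.59 on chromosome 10 and at 1.16 to 1.55 on chromosome 11 in the 8 cKO libraries, and chromosome 16 was lowest there at 0.621 to 0.817. In the 8 WT libraries chromosome 10 stood at 1.15 to 1.27 and chromosome 11 at 0.929 to 1.01, and the lowest chromosome (4, 7 or 12) at 0.603 to 0.654. Results that compare levels between promoters are therefore also given with each library's CPM divided by the level of its chromosome, called chromosome-scaled, a setting chosen after seeing the data. Chromosome-scaled, the test between the marks described next called 691 and 601 promoters, and the interaction of genotype and mark 169 and 193.

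In cKO MSCs, 706 promoters carried more H3K27me3 than H2AK119ub1, and 650 carried more H2AK119ub1 than H3K27me3. These were 18.8% and 17.3% of the 3761 promoters tested with edgeR's quasi-likelihood test, at an adjusted p of 0.05 or less. The median log2 difference (H3K27me3 over H2AK119ub1) was 1.00 in the first class and -0.88 in the second, against -0.14 over all promoters tested. Both H3K27me3 libraries lay above both H2AK119ub1 libraries at 691 of the 706 promoters, and both lay below at all 650 of the second class. Log2 differences of 1 or more were found at 350 promoters of the first class, and of -1 or less at 205 of the second. The number higher in H2AK119ub1 fell to 155 without H2AK119ub1 replicate 1 and to 237 without replicate 2. It depended on the scaling as well, since the split of 706 against 650 became 597 against 1005 with library totals alone and 796 against 461 with factors from the promoters. It became 579 against 1030 with scaling on the outer 1 kb flanks of the windows. Taken relative to the same gene's outer flanks, only 83 and 82 promoters were called, with a median of 62 to 134 counts in the flanks against 126 to 322 in the promoters.

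**Figure D1:**
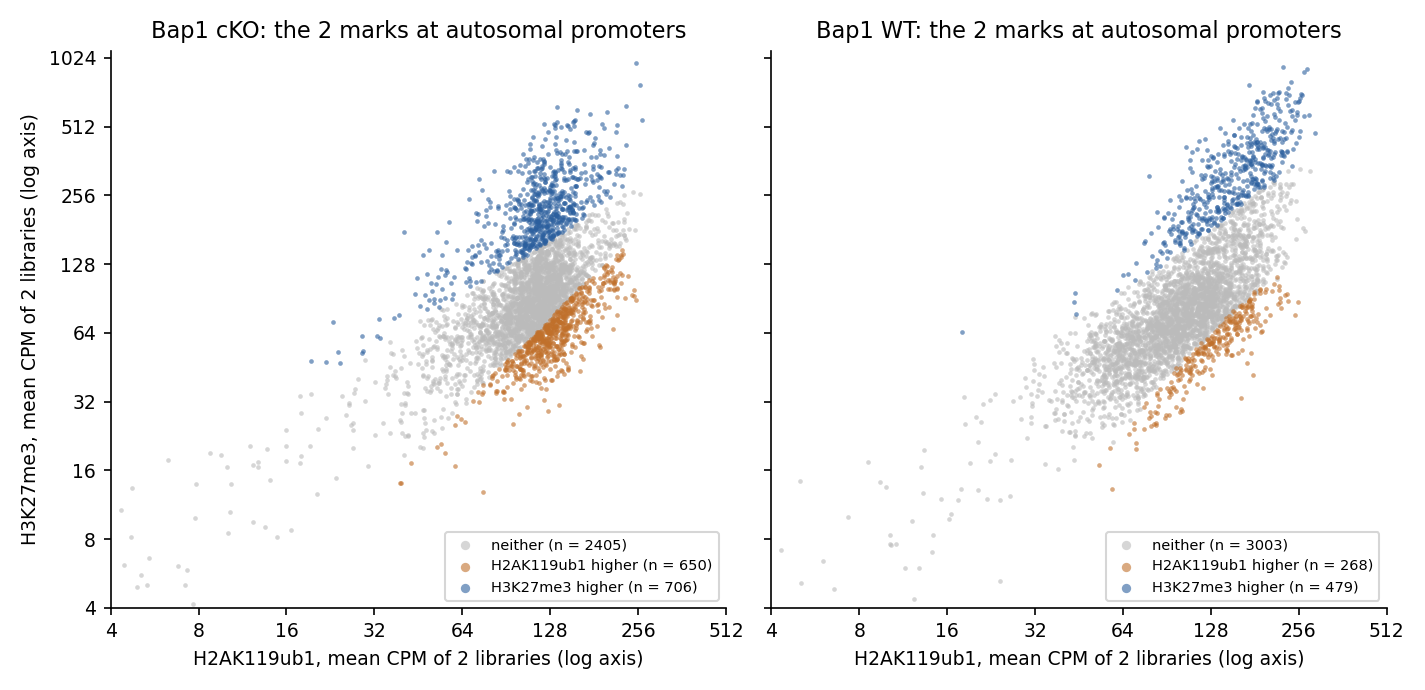
Promoter levels of H2AK119ub1 (x axis) and H3K27me3 (y axis) as mean CPM of 2 libraries, on log axes, in Bap1 cKO (left) and Bap1 WT (right); each point is 1 tested autosomal promoter, coloured by the call of the test between marks. In cKO the points above 128 CPM of H3K27me3 form a nearly upright column at the middle of the H2AK119ub1 range, while in WT they lean to the right; 5 promoters in cKO and 3 in WT lie below the axis start of 4 CPM.

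The genes with more H3K27me3 were led by Igf2bp1, a fetal RNA-binding protein, whose promoter held 951 and 984 CPM of H3K27me3 and 249 and 254 CPM of H2AK119ub1. Its log2 difference was 2.09 ± 0.13 (SE), with an adjusted p of 2.17e-54. Both marks were high there, and the libraries of the marks did not overlap. Hoxc13, a posterior Hox factor, had 659 and 584 CPM of H3K27me3 against 134 and 136 CPM of H2AK119ub1 (log2 difference 2.35 ± 0.15, adjusted p 2.58e-49). Sfrp1, a secreted Wnt antagonist, had 505 and 549 CPM against 107 and 137 CPM (2.26 ± 0.16, adjusted p 1.82e-41). H2AK119ub1 was somewhat above its median over all promoters (116 and 113 CPM) at Hoxc13, and on both sides of it at Sfrp1. At both genes H3K27me3 was more than 5 times its own median of 92.3 and 87.9 CPM. Cgas, the sensor of cytosolic DNA, had 506 and 545 CPM against 144 and 120 CPM (2.14 ± 0.16). Trpc1, a cation channel subunit, had 419 and 502 CPM against 117 and 107 CPM (2.19 ± 0.17). Npas2, a clock transcription factor, differed by 2.07 ± 0.16, Rnf220, a ubiquitin ligase, by 2.12 ± 0.16, Tmcc3 by 2.10 ± 0.16 and Vax2, a homeobox factor of the eye, by 2.02 ± 0.16. That the libraries of the marks do not overlap at these promoters was part of the rule that chose them.

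The 150 bases before the start of Cgas and Trpc1 are shown to let their base composition be read. Both promoters had much H3K27me3, while H2AK119ub1 was near its median at Trpc1 and somewhat above it at Cgas. The stretches are from RefSeq (GRCm38.p6, minus strand, written 5′ to 3′, CpG dinucleotides in capitals).
Cgas, chr9:78443238-78443387: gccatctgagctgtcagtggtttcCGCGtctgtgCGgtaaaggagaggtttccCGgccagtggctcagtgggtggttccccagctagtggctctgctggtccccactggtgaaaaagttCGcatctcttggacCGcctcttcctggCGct
Trpc1, chr9:95750349-95750498: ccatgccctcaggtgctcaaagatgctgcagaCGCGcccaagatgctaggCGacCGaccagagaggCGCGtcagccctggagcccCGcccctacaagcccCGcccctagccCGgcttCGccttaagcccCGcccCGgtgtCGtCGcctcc
Cgas held 7 CpG in this stretch and Trpc1 held 14.

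More H2AK119ub1 than H3K27me3 was found at Mn1, a transcriptional co-regulator needed for palate and skull bones, with 202 and 218 CPM of H2AK119ub1 and 76.6 and 56.5 CPM of H3K27me3. Its log2 difference was -1.51 ± 0.23, with an adjusted p of 7.07e-10. Socs3, an inhibitor of cytokine signalling through JAK and STAT proteins, had 251 and 252 CPM of H2AK119ub1 against 102 and 77.4 CPM (-1.34 ± 0.20, adjusted p 9.64e-10). At both promoters H2AK119ub1 was among the highest 10%, chromosome-scaled too, and H3K27me3 was near or under its median. Inafm1 had 137 and 137 CPM against 37.0 and 25.1 CPM (-1.99 ± 0.32, adjusted p 6.58e-09), so that its difference lay on the side of low H3K27me3. Col6a1, a chain of collagen VI, had 226 and 207 CPM against 62.1 and 91.3 CPM (-1.35 ± 0.22, adjusted p 1.20e-08). It lies on chromosome 10, and chromosome-scaled it had 148 and 135 against 39.1 and 61.5. The next were Cnn2, a calponin (-1.22 ± 0.20), Cdc42ep1, an effector of the GTPase Cdc42 (-1.60 ± 0.27), and Sh3gl1, an endophilin (-1.96 ± 0.33). The keratin Krt80 (-1.74 ± 0.28), Plekhh3 (-1.19 ± 0.21) and Xkr5 (-1.54 ± 0.27) complete the 10 promoters of lowest p. H3K4me3 by title was 735 and 716 CPM at Mn1 and 962 and 887 CPM at Socs3, against 46.9 and 39.4 CPM at Igf2bp1 and 51.3 and 63.9 CPM at Sfrp1.

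The stretches before Socs3 and Inafm1 are given on the same terms, as promoters of the opposite class (both on the minus strand).
Socs3, chr11:117969367-117969516: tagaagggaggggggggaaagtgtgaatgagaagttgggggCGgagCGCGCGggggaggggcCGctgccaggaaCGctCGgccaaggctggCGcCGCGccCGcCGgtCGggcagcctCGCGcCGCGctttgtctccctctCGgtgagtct
Inafm1, chr7:16273693-16273842: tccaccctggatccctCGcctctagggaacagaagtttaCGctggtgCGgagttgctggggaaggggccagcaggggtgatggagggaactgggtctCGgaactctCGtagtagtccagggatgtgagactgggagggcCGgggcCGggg
Socs3 held 18 CpG and Inafm1 held 7, so the count of CpG in these 4 stretches did not separate the classes. Over the full RefSeq promoters (250 bases before to 50 after the start), the median number of CpG was 22 at the 466 promoters with sequence that had more H3K27me3, and 22 at the 435 that had more H2AK119ub1. The letters CG occurred at least 15 times in 73.0% and 73.3% of these promoters, against 67.3% of all 2501 autosomal promoters with sequence. The letters TATAAA, searched on both strands, were found in 7.30% and 9.43%, against 8.32% of all, and CCAAT in 33.9% and 39.5%, against 37.7% of all. A match is a description of these letters and not a measured site.

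**Figure D2:**
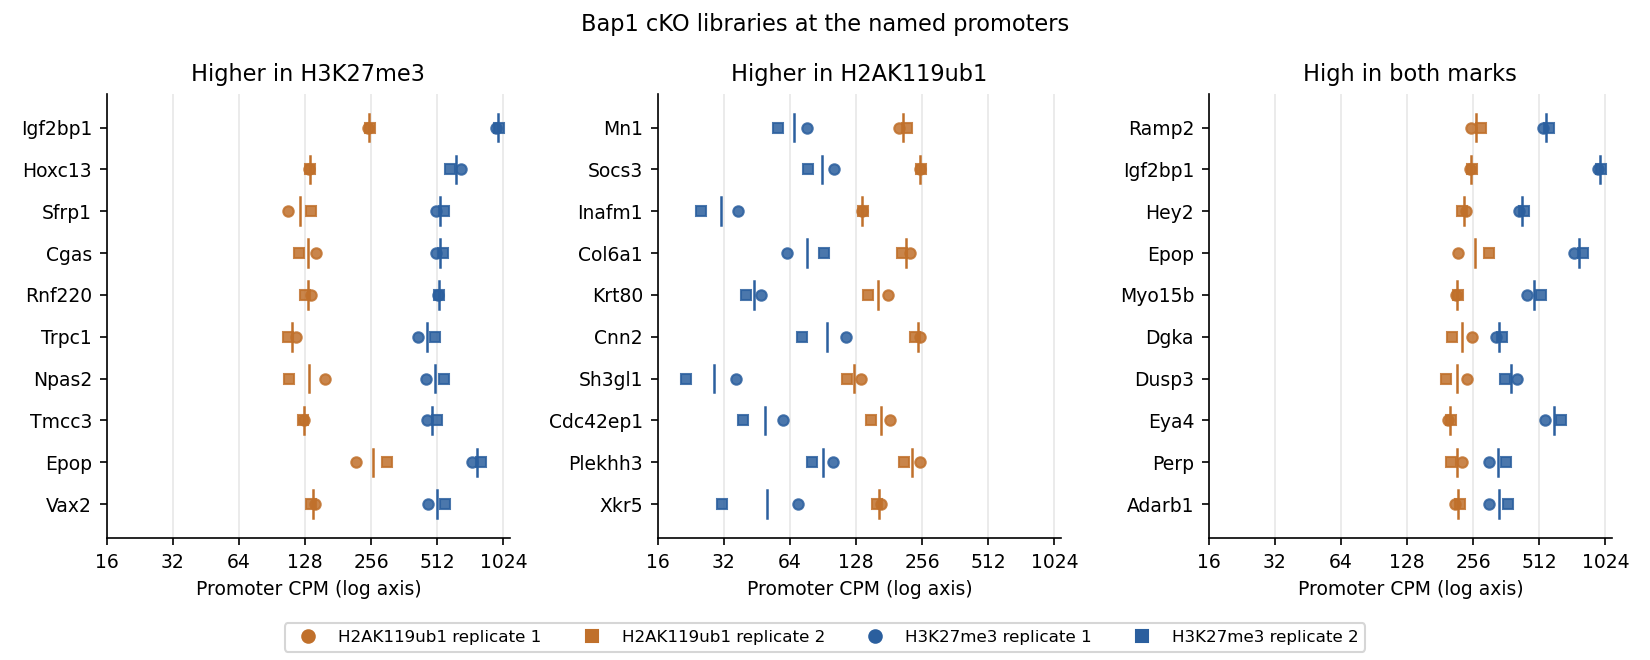
Promoter CPM (log axis) in the 4 Bap1 cKO libraries at the named promoters, with circles for replicate 1, squares for replicate 2 and a bar at the mean of 2 libraries. H3K27me3 lies to the right of H2AK119ub1 in the left and right panels, and to the left of it in the middle panel; Igf2bp1 and Epop appear in both outer panels.

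Promoters high in both marks were found by their lowest rank over the 4 cKO libraries. The first was Ramp2, a partner protein of the adrenomedullin receptor, with 251 and 278 CPM of H2AK119ub1 and 532 and 567 CPM of H3K27me3. Epop, a protein bound to PRC2, had 218 and 302 CPM of H2AK119ub1 and 739 and 811 CPM of H3K27me3. Hey2, a Notch target gene, had 239 and 228 CPM and 415 and 437 CPM. In each of these 3 the H3K27me3 libraries lay above the H2AK119ub1 libraries, and the log2 difference was 1.20 ± 0.14 at Ramp2, 1.72 ± 0.13 at Epop and 1.02 ± 0.15 at Hey2. The others were Igf2bp1, Myo15b (an unconventional myosin, 1.32 ± 0.15), Dgka (a lipid kinase, 0.70 ± 0.16), Dusp3 (a phosphatase, 0.97 ± 0.16), Eya4 (a transcriptional coactivator, 1.72 ± 0.15), Perp (a p53 target, 0.77 ± 0.16) and Adarb1 (an RNA-editing enzyme, 0.78 ± 0.16). All 10 differences passed the test, with more H3K27me3. However, 5 of the 10 genes lie on chromosome 10 and 5 on chromosome 11, the chromosomes of high level in the cKO libraries. Chromosome-scaled, 7 of the 10 were still in the top 10% of both marks, and Eya4, Perp and Adarb1 were in that of H3K27me3 alone. Relative to the gene's own outer flanks the difference at Perp was -0.02.

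Hey2 and Myo15b are shown as the first promoters of this ranking with a RefSeq promoter sequence at hand (Hey2 on the minus strand, Myo15b on the plus strand). They were not chosen as extremes of base composition.
Hey2, chr10:30842784-30842933: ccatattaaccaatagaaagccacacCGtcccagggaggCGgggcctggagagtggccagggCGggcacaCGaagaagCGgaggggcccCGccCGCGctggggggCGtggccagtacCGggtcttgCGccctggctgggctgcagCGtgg
Myo15b, chr11:115857775-115857924: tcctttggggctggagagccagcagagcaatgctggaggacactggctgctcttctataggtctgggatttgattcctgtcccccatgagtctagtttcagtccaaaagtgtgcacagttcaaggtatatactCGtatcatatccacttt
Hey2 held 12 CpG and Myo15b held 1 in these 150 bases. Over the 52 doubly marked promoters with sequence (in the top 10% of both marks by mean CPM), the median of the full promoters was 25 CpG, and 86.5% had at least 15, against 67.3% of all. Of all 91 promoters of that set, 64 lie on chromosomes 10 and 11. The CpG count of the chromosome-scaled set is not given here.

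Across promoters the 2 marks were correlated in cKO, but less closely than the replicates of either mark. Spearman's rho between 1 H2AK119ub1 and 1 H3K27me3 library was 0.421 to 0.506 over the 4 pairs (3789 promoters). Between replicates it was 0.757 for H2AK119ub1 and 0.835 for H3K27me3. In WT, rho between the marks was 0.683 to 0.726, and between replicates 0.852 and 0.813. The mean rho between marks, divided by the geometric mean of the replicate values, was 0.584 in cKO and 0.844 in WT. In the outer flanks, away from the starts, rho between the marks was 0.366 to 0.459 in cKO, a range that overlapped that of the promoters. In WT it was 0.521 to 0.567, below the range of the promoters. The ratio to the replicates in the flanks was 0.622 in cKO and 0.816 in WT. Chromosome-scaled, rho between the marks at promoters was 0.374 to 0.443 in cKO and 0.587 to 0.627 in WT, with ratios of 0.536 and 0.814. These values are descriptions across genes that share libraries, sequencing depth and base composition, and the difference between genotypes was not tested. Within single autosomes rho between the mean levels ran from 0.166 to 0.640 in cKO (median 0.445) and from 0.574 to 0.827 in WT (median 0.673), and it was lower in cKO on 18 of 19 autosomes.

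The relation in cKO was weak among promoters above the median of both marks. Pearson's r of log2(CPM + 1) between the mean levels was 0.703 over all promoters, and 0.164 over the promoters above the median of both marks (chromosome-scaled 0.685 and 0.154). A cut on both marks narrows their ranges and can by itself lower r. In WT the values were 0.806 and 0.526 (chromosome-scaled 0.784 and 0.579), and the difference between genotypes was not tested. From the lowest to the second decile of H3K27me3, the median H2AK119ub1 went from 59.8 to 98.3 CPM in replicate 1 and from 58.5 to 97.6 CPM in replicate 2. Over the remaining 8 deciles it went only to 135 CPM in both libraries, while the median H3K27me3 reached 268 and 277 CPM. In WT the top decile of H3K27me3 held 187 and 174 CPM of H2AK119ub1, above both cKO libraries. Chromosome-scaled, that decile held 128 and 130 in cKO and 179 and 164 in WT.

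**Figure D3:**
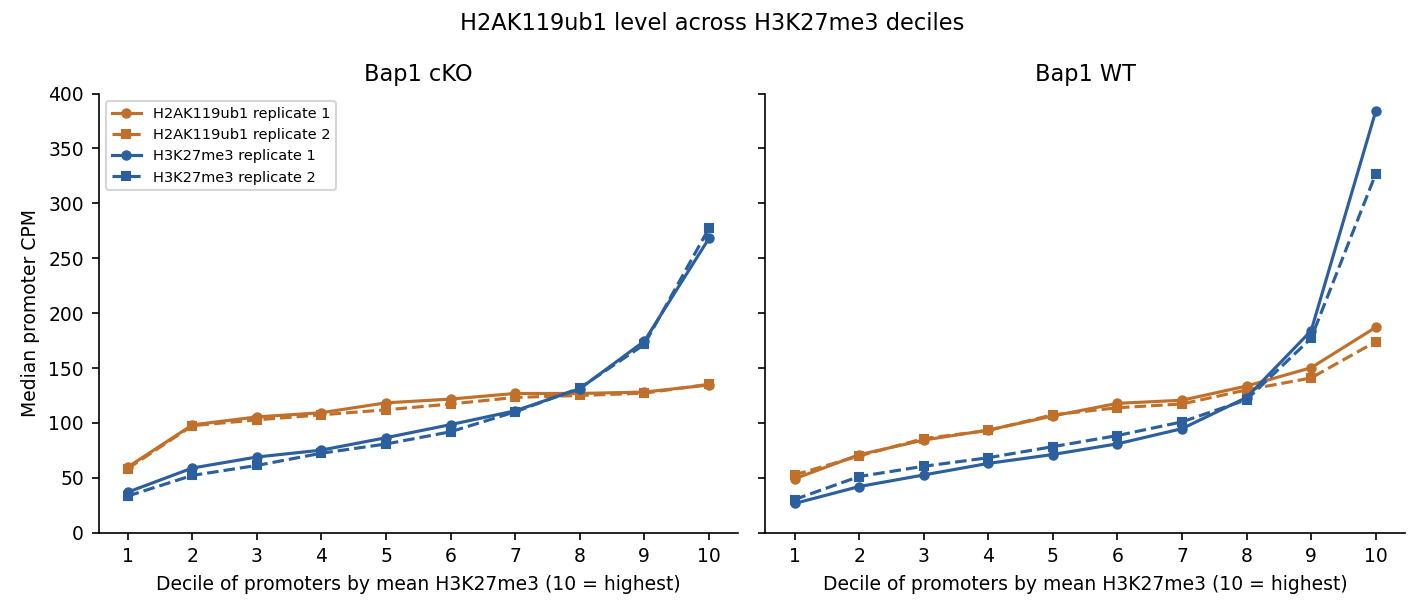
Median promoter CPM of H2AK119ub1 and H3K27me3 (y axis, 1 line per library) over deciles of promoters ordered by mean H3K27me3 of the same genotype (x axis, 10 = highest), in Bap1 cKO (left) and Bap1 WT (right). In the top decile the H2AK119ub1 libraries stand at 135 CPM in cKO and at 187 and 174 CPM in WT; the H3K27me3 lines rise by construction.

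H2AK119ub1 was spread over a narrower range of levels than H3K27me3 in cKO. The ratio of the 90th to the 10th percentile of promoter CPM was 2.402 ± 0.107 (SD, n = 2) for H2AK119ub1 and 4.57 ± 0.366 for H3K27me3. In WT it was 3.23 ± 0.206 and 6.35 ± 1.44. These ratios are over the 3761 promoters tested in cKO, and the next ones are over all autosomal promoters. Chromosome-scaled, the ratio was 2.298 and 2.13 for H2AK119ub1 and 4.08 and 4.72 for H3K27me3 in cKO. In WT it was 2.68 and 2.41 for H2AK119ub1 and 6.41 and 4.72 for H3K27me3, so the genotypes then overlapped in H3K27me3. The 99th percentile stood at 1.94 ± 0.00812 times the median for H2AK119ub1 and at 4.77 ± 0.197 times for H3K27me3 in cKO. As CPM, the groups did not overlap in these comparisons. Each comparison of CPM had a two-sided exact permutation p of 0.333, the smallest that 2 against 2 libraries allow.

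The highest 10% of promoters of each mark (378 promoters, by mean CPM) shared 91 promoters in cKO, 24.1% of each list. Pairs of single libraries of different marks shared 72 to 102. The replicates of H2AK119ub1 shared 242 (64.0%) and those of H3K27me3 shared 311 (82.3%), so the lists of the marks overlapped less than the lists of either mark's replicates. In WT the marks shared 200 promoters (52.9%), and single library pairs shared 188 to 194. Which promoters were high in both marks in cKO depended on the chromosome levels. Of the 91, 64 (70.3%) lie on chromosomes 10 and 11, as do 263 of the 378 in the H2AK119ub1 list (69.6%) and 91 in the H3K27me3 list (24.1%), against 13.8% of all promoters. Of the 200 in WT, 45 (22.5%) do. Chromosome-scaled, the lists shared 89 promoters in cKO, of which 39 were among the 91, and the H2AK119ub1 list kept 181 of its 378 promoters and the H3K27me3 list 329. The replicates of H2AK119ub1 then shared 166 and those of H3K27me3 307, and in WT the marks shared 205. Without chromosomes 10 and 11, the lists of 326 promoters shared 80 in cKO and 164 in WT.

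Promoters chosen in one mark's library were next read in the other mark's library of the other replicate number. The top 10% of H3K27me3 replicate 1 had a median H2AK119ub1 of 1.19 times that of all promoters in replicate 2, and the top 10% of replicate 2 had 1.15 times in replicate 1. In WT these values were 1.64 and 1.73 times. The top 10% of the H2AK119ub1 libraries had 1.47 and 1.57 times the median H3K27me3 in cKO, and 2.71 and 3.38 times in WT. In every such reading the cKO value was the lower, and none was at or under the level of all promoters. Chromosome-scaled, the cKO values were 1.16, 1.13, 1.33 and 1.41 times and the WT values 1.48, 1.59, 2.55 and 3.27 times.

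Of the 200 promoters in both top lists in WT, 32 (16.0%) were in both top lists in cKO. In cKO, 104 of the 200 (52.0%) were in the H3K27me3 list, 55 (27.5%) were in the H2AK119ub1 list and 73 were in neither. Their medians in cKO were 140 and 139 CPM of H2AK119ub1 and 212 and 214 CPM of H3K27me3. Read the other way, 32 of the 91 doubly marked promoters in cKO (35.2%) were doubly marked in WT. The H3K27me3 lists of the 2 genotypes shared 183 of 378 promoters (48.4%) and the H2AK119ub1 lists 108 (28.6%). Each top list holds 10% of all promoters. Of the 287 promoters high in H3K27me3 alone in cKO, 94 (32.8%) had been in the H2AK119ub1 list in WT. Of the 287 high in H2AK119ub1 alone, 25 (8.71%) had been in the WT H3K27me3 list. These 287 exclude the cKO H3K27me3 list by definition, and with it the 183 promoters it shares with the WT list. Their share can therefore not be read against that of all promoters. Chromosome-scaled, 38 of 205 (18.5%) doubly marked in WT were so in cKO, and 107 (52.2%) were in the H3K27me3 list and 52 (25.4%) in the H2AK119ub1 list.

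H3K27me3 stood well above the outer flanks around the starts of the genes it marked, and H2AK119ub1 stood little above them. At the 287 promoters high in H3K27me3 alone, H3K27me3 within 500 bp of the start was 1.97 and 1.85 times that of the outer 1 kb flanks, while H2AK119ub1 was 1.17 and 1.11 times. At the 91 promoters high in both marks these ratios were 1.87 and 1.92 for H3K27me3 and 1.19 and 1.22 for H2AK119ub1. In the promoters high in H2AK119ub1 alone, H2AK119ub1 at the centre was 1.181 and 1.099 times the flanks, and 0.840 and 0.831 times the higher of the stretches from 0.5 to 2 kb to each side. H2AK119ub1 was thus lower at the start than beside it in each class, with a centre at 0.815 to 0.878 of the higher side. The centre of H3K27me3 was 0.967 and 0.956 of the higher side at promoters high in both marks, and 1.02 and 0.990 at those high in H3K27me3 alone, its highest bins lying downstream of the start. In the other classes H3K27me3 dipped as well, to 0.792 and 0.748 at promoters high in H2AK119ub1 alone and to 0.800 and 0.754 at the rest. Over all windows together, the 2 kb to each side of the start held 42.8% ± 0.713 (SD, n = 2) of the H3K27me3 counts and 43.3% ± 0.600 of the H2AK119ub1 counts, and the libraries overlapped (two-sided exact permutation p 0.667).

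**Figure D4:**
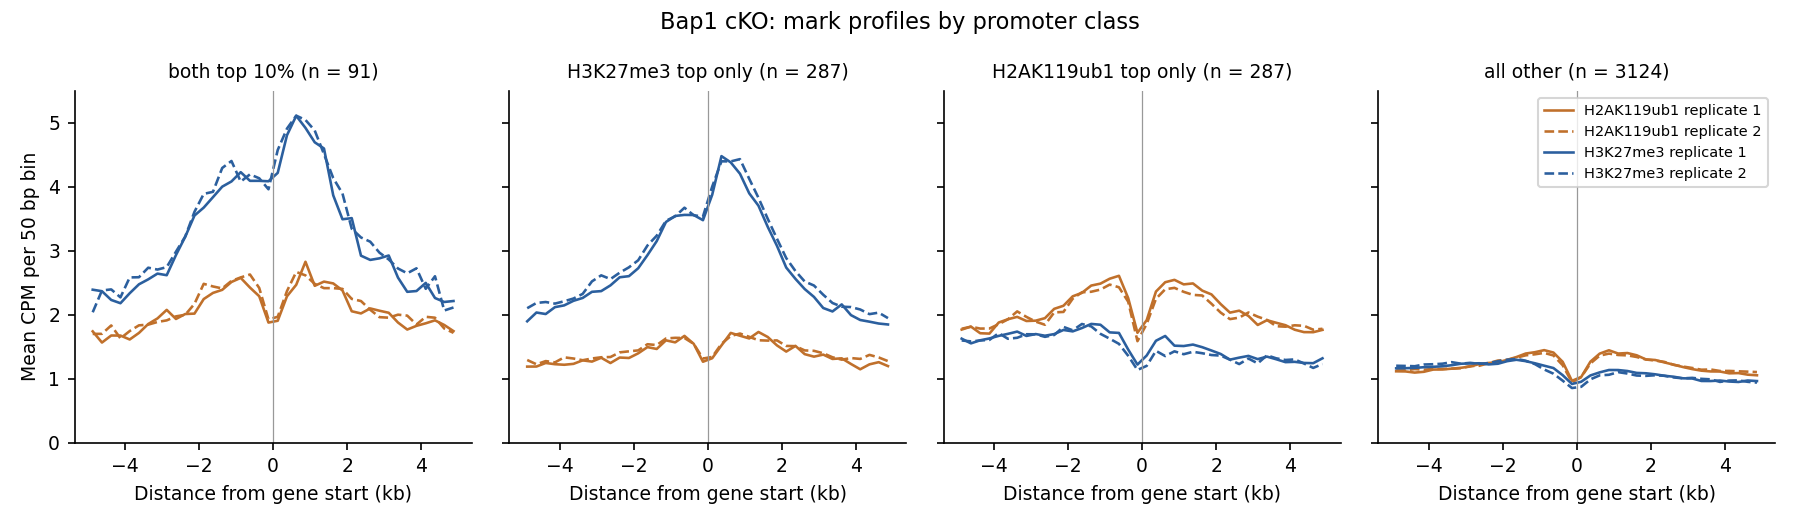
Mean CPM per 50 bp bin (y axis) against distance from the gene start in kb (x axis, positive values downstream) in the 4 Bap1 cKO libraries, for promoters in the top 10% of both marks, of H3K27me3 only, of H2AK119ub1 only and for all others. In the first and second panel the H3K27me3 lines are high around the start, at ratios of centre to outer flank of 1.85 to 1.97, with their highest bins downstream; H2AK119ub1 dips at the start in all 4 panels and H3K27me3 in the last panels, those of H2AK119ub1 only and of all others.

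The classes differed in the marks of active promoters, which the test between the Polycomb marks did not use. Promoters with more H2AK119ub1 had a median H3K4me3 by title of 320 and 318 CPM, those with more H3K27me3 had 99.1 and 102 CPM, and those called in neither direction had 199 and 199 CPM. For H3K27ac by title the medians were 264 and 249 CPM, 49.0 and 57.3 CPM, and 131 and 129 CPM. The doubly marked promoters lay between the first 2 of these, with 167 and 180 CPM of H3K4me3. However, 64 of these 91 lie on chromosomes 10 and 11, where the flanks of the cKO H3K4me3 libraries stood at 1.38 to 1.49. Their chromosome-scaled H3K4me3 is not given here. H2AK119ub1 and H3K4me3 of the same replicate number had a rho of 0.362 and 0.280 across promoters in cKO and of 0.067 and 0.043 in WT. H3K27me3 and H3K4me3 had -0.034 and -0.101 in cKO and -0.195 and -0.172 in WT. So rho of H2AK119ub1 with H3K4me3 was higher in cKO than in WT in both libraries, a difference that was not tested. Chromosome-scaled, it was 0.327 and 0.256 in cKO and turned to -0.094 and -0.144 in WT. The authors' mark UP was carried by 62.9% of the promoters with more H2AK119ub1 and by 33.3% of those with more H3K27me3, against 48.8% of all tested. That mark may rest on these libraries and is no independent measure.

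Chromosomes differed in the balance of the marks. On chromosome 11, 97 of 338 promoters tested (28.7%) had more H2AK119ub1, and on chromosome 6, 18 of 203 (8.87%) did, against 17.3% of all. The median log2 difference was -0.30 on chromosome 11 and 0.0026 on chromosome 6. The outer flanks moved the same way, with a median log2 difference of -0.16 on chromosome 11 and 0.014 on chromosome 6. The part of such regional levels in single promoters was not tested beyond the flank-relative and chromosome-scaled counts above.

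Was the balance of the marks in cKO that of WT? The same test in WT called 479 promoters (12.8% of 3750) higher in H3K27me3 and 268 (7.15%) higher in H2AK119ub1. Of the cKO calls, 292 of the 706 (41.4%) were among the 479 in WT, where they make up 60.96%. Of the 650 promoters with more H2AK119ub1 in cKO, 107 (16.5%) were among the 268 in WT (39.9%), 15 had been higher in H3K27me3 there and 528 had been called in neither direction. A call in one genotype and not in the other is no test of a difference, which the interaction of genotype and mark gives.

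The interaction was tested at 3769 promoters. The difference of H3K27me3 over H2AK119ub1 was larger in cKO at 177 promoters (4.7%) and smaller at 178 (4.72%). At the 177, the median H3K27me3 was 80.2 and 90.9 CPM in WT and 227 and 232 CPM in cKO, while the median H2AK119ub1 was 142 and 135 CPM in WT and 122 and 122 CPM in cKO. At the 178, the median H3K27me3 was 317 and 260 CPM in WT and 89.1 and 93.8 CPM in cKO, and the median H2AK119ub1 was 157 and 137 CPM in WT and 129 and 128 CPM in cKO. H3K27me3 moved further than H2AK119ub1 at 153 of the 177 promoters and at 162 of the 178. Both sets were chosen by the difference between these changes, and H3K27me3 had the wider range of levels. These counts are therefore partly built in, and the share over all promoters is not given here. The authors' mark was DOWN at 161 of the 177 and UP at 173 of the 178, against 1940 DOWN and 1849 UP among all autosomal genes. As its basis is not stated and may be these libraries, it is no independent measure of the interaction. The number larger in cKO became 114, 117 and 89 without WT H2AK119ub1 replicate 1, cKO H2AK119ub1 replicate 2 and cKO H3K27me3 replicate 2, and 268 without WT H3K27me3 replicate 2. The number smaller in cKO became 115, 107, 118 and 115 without WT H2AK119ub1 replicate 2, cKO H2AK119ub1 replicates 1 and 2 and cKO H3K27me3 replicate 1. Relative to each gene's own outer flanks, 3 and 1 promoters were called.

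Hoxc13 had the strongest interaction of those with a larger difference in cKO. Its H3K27me3 was 72.9 and 118 CPM in WT and 659 and 584 CPM in cKO, and its H2AK119ub1 144 and 178 CPM in WT and 134 and 136 CPM in cKO (interaction log2 2.89 ± 0.33, adjusted p 4.80e-10). Its neighbour in the same cluster, Hoxc11, went from 128 and 174 CPM to 547 and 527 CPM of H3K27me3, with 192 and 209 CPM of H2AK119ub1 in WT and 140 and 167 CPM in cKO (2.14 ± 0.32). H3K27me3 was thus several times higher in cKO at both Hox promoters, while the lower H2AK119ub1 depended on the chromosome level. Chromosome-scaled, H2AK119ub1 at Hoxc13 was 112 and 141 in the WT libraries and 121 and 132 in the cKO libraries. At Hoxc11 the WT libraries had 149 and 165 and the cKO libraries 127 and 162, so that the genotypes overlapped at both genes. Pparg, the master regulator of fat cells, had 72.1 and 76.1 CPM of H3K27me3 in WT and 325 and 281 CPM in cKO, and 136 and 140 CPM of H2AK119ub1 in WT and 115 and 99.3 CPM in cKO (2.32 ± 0.34, adjusted p 4.05e-07). Chromosome-scaled, its H2AK119ub1 overlapped too, with 114 and 116 in the WT libraries against 118 and 100.1 in the cKO libraries. As CPM, Eya4 was the one of the 6 where both marks were higher in both cKO libraries (2.26 ± 0.33). Its H2AK119ub1 was 147 and 150 CPM in WT and 198 and 202 CPM in cKO, but it lies on chromosome 10. Chromosome-scaled, its H2AK119ub1 was 119.02 and 128 in the WT libraries and 130 and 132 in the cKO libraries, a much smaller difference. Impa2, an inositol phosphatase, and Parm1 complete the 6, with interactions of 2.39 ± 0.35 and 2.27 ± 0.35.

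In the opposite direction, Foxd1, a forkhead transcription factor, fell from 814 and 751 CPM of H3K27me3 in WT to 102 and 99.01 CPM in cKO. Its H2AK119ub1 was 186 and 161 CPM in WT and 132 and 132 CPM in cKO (interaction log2 -2.64 ± 0.32, adjusted p 2.18e-09). Phf19, an accessory subunit of PRC2, had 502 and 500 CPM of H3K27me3 in WT and 69.7 and 60.7 CPM in cKO, with 222 and 208 CPM of H2AK119ub1 in WT and 141 and 129 CPM in cKO (-2.34 ± 0.33). At these promoters both marks were lower in both cKO libraries. At Mn1, H3K27me3 was 319 and 318 CPM in WT and 76.6 and 56.5 CPM in cKO (-2.34 ± 0.34). As CPM its H2AK119ub1 overlapped between the genotypes, with 209 and 209 in WT and 202 and 218 in cKO. Chromosome-scaled, H2AK119ub1 at Mn1 was 238 and 234 in the WT libraries and lower in both cKO libraries, at 200 and 226. Jag1, a Notch ligand, had 405 and 334 CPM of H3K27me3 in WT and 74.7 and 58.6 CPM in cKO (-2.32 ± 0.34). Sema3f, a guidance factor, and Pcdh7, a protocadherin, had interactions of -2.49 ± 0.35 and -2.40 ± 0.35.

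**Figure D5:**
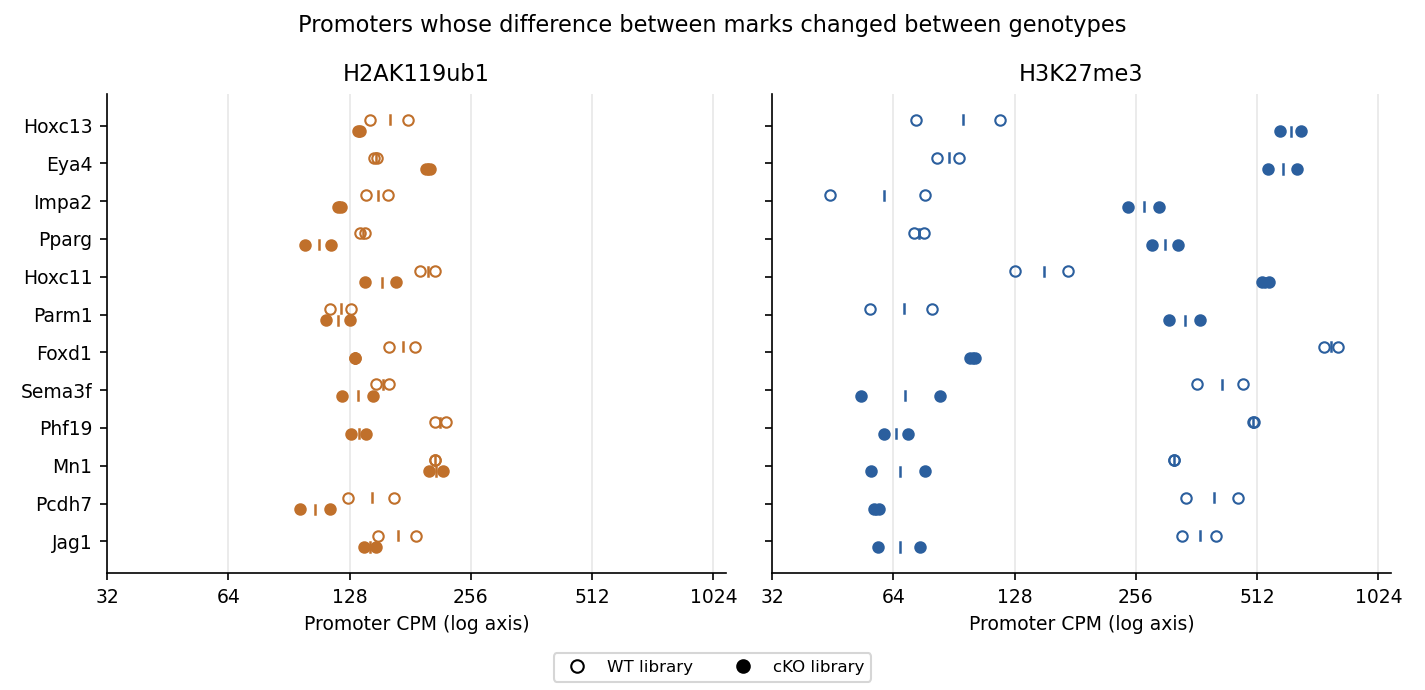
Promoter CPM (log axis) of H2AK119ub1 (left) and H3K27me3 (right) at the 12 named promoters with an interaction of genotype and mark, with open circles for WT libraries, filled circles for cKO libraries and bars at means of 2. H3K27me3 shifts to the right in cKO from Hoxc13 to Parm1 and to the left from Foxd1 to Jag1, while H2AK119ub1 stays between 96.2 and 222 CPM.

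Gene lists were read against the shares of all promoters called, 18.8% with more H3K27me3 and 17.3% with more H2AK119ub1, and against 4.7% and 4.72% for a larger and a smaller difference in cKO. Of 142 transcription factor genes listed as Polycomb targets, 27 are in the table. Of these, 14 had more H3K27me3 and 4 had more H2AK119ub1, with a median log2 difference of 0.59 against -0.14 over all promoters. Vax2, Gata6, a factor of heart and gut (554 and 488 CPM of H3K27me3, 151 and 141 CPM of H2AK119ub1), and Tbx2, a T-box factor (461 and 462 CPM against 151 and 117 CPM), had log2 differences of 2.02, 1.98 and 1.94. Relative to the genes' own flanks the list's median was -0.14, with 1 and 2 members called. Interactions were called at 4 members with a larger difference in cKO and at 8 with a smaller one. Of the 6 of 39 Hox genes in the table, Hoxc13 and Hoxc11 had more H3K27me3 and Hoxa3 more H2AK119ub1 (141 and 138 CPM against 74.7 and 55.8 CPM, -0.95 ± 0.27).

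Among 9 genes of the Polycomb machinery, 4 had more H3K27me3 and 1 had more H2AK119ub1, with a median of 0.09. Besides Epop they were Cbx6, a chromodomain subunit of PRC1 (0.86 ± 0.19), Bmi1, a PRC1 subunit (0.86 ± 0.21), and Cbx7. Phf19 was the member with more H2AK119ub1 (-0.90 ± 0.28).

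Of 11 osteoblast genes, 7 had more H3K27me3 and none had more H2AK119ub1 (median 0.60), against background shares of 18.8% and 17.3%. Smpd3, a sphingomyelinase needed for mineralisation, had 267 and 345 CPM of H3K27me3 and 174 and 151 CPM of H2AK119ub1 (1.07 ± 0.17). Tnfsf11, which encodes the osteoclast factor RANKL, had 226 and 223 CPM and 110 and 124 CPM (1.09 ± 0.20), and Alpl, alkaline phosphatase, had 179 and 122 CPM and 62.8 and 91.9 CPM (1.11 ± 0.25). The libraries of the marks did not overlap at these 3 genes. The median H3K4me3 of the 11 genes was 38.8 and 38.1 CPM, against 193 and 194 CPM over all tested. Under library totals alone, 5 of the 11 had more H3K27me3, and relative to own flanks none did.

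Of 14 fat cell genes, 5 were higher in H3K27me3 and 3 higher in H2AK119ub1 (median -0.41). The counts were 5 and 6 with library totals or scaling on the outer flanks, 5 and 1 with DESeq2, and 1 and 1 relative to own flanks. Pparg (1.65 ± 0.19), Zfp423, a factor of fat cell precursors (1.40 ± 0.18), and Lpl, lipoprotein lipase (1.28 ± 0.19), were among the former, and Cebpd, Plin2 and Prdm16 were the latter. Of 7 cartilage and tendon genes, none had more H3K27me3, against 18.8% of all promoters, and 2 had more H2AK119ub1 (median -0.24). Scx, the tendon factor, had 167 and 141 CPM of H2AK119ub1 against 62.8 and 60.7 CPM of H3K27me3 (-1.17 ± 0.27). Sox9, the cartilage factor, had 201 and 204 CPM against 71.5 and 127 CPM (-0.88 ± 0.21), and Gdf5, a growth factor of joints, did not pass the test (0.38 ± 0.21). Sox9 lies on chromosome 11, and chromosome-scaled it had 148 and 157 of H2AK119ub1 against 54.9 and 110 of H3K27me3.

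Among 32 genes of the Wnt, BMP, Hedgehog and Notch pathways, intracellular members included, 14 had more H3K27me3 and 6 had more H2AK119ub1 (median 0.37). Of the ligands, Wnt11 had 460 and 537 CPM of H3K27me3 against 139 and 161 CPM of H2AK119ub1 (1.88 ± 0.16), and Wnt4, Wnt9a, Wnt10b, Bmp4, Jag2 and Dll1 were called the same way, while Jag1 was called in the other direction (-0.96 ± 0.27). Receptors were divided, with Fzd3 higher in H3K27me3 (1.60 ± 0.17) and Fzd2, Fzd7 and Ror2 higher in H2AK119ub1. The antagonists Sfrp1, Wif1 and Nog had more H3K27me3 and Dkk3 more H2AK119ub1. Of the intracellular members, Axin2, Gli2 and Hey2 had more H3K27me3 and Hes1 more H2AK119ub1. Relative to own flanks 3 and 0 members were called. Interactions were called at 1 member with a larger difference in cKO and at 8 with a smaller one.

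Of 19 genes through which stromal cells support blood-forming cells, 6 had more H3K27me3 and 4 more H2AK119ub1 (median 0.18). These counts turned with the scaling, to 4 and 6 with library totals or the outer flanks and 8 and 3 with factors from the promoters, and to 0 and 0 relative to own flanks (median -0.15). Kitl, the stem cell factor, had 336 and 248 CPM of H3K27me3 and 186 and 172 CPM of H2AK119ub1 in cKO (0.85 ± 0.17), and its H3K27me3 in WT was 126 and 72.3 CPM (interaction 1.32 ± 0.35, adjusted p 0.00567). Kitl lies on chromosome 10. Chromosome-scaled, its H3K27me3 was 211 and 167 in cKO and 99.6 and 59.9 in WT, and its H2AK119ub1 was 122 and 112 in cKO. Jag2 (1.13 ± 0.19) and Tnfsf11 were called in the same direction as Kitl. Cxcl12, the chemokine that retains blood stem cells, had 184 and 147 CPM of H2AK119ub1 and 93.5 and 129 CPM of H3K27me3, a difference that did not pass the test (-0.42 ± 0.22, adjusted p 0.118). Of 10 cytokine and interferon-response genes, 4 had more H3K27me3 and 1 had more H2AK119ub1 (median 0.49), and under library totals alone 2 and 2 did. Cxcl14 (333 and 369 CPM against 120 and 124 CPM, 1.68 ± 0.17), Ifit1 (1.22 ± 0.20) and Tnfaip6 (0.58 ± 0.21) were among those with more H3K27me3.

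Among 30 collagen and matrix genes 4 had more H3K27me3 and 5 more H2AK119ub1 (median -0.17), with Col14a1 (1.55 ± 0.17) and Col27a1 (0.97 ± 0.17) on one side and Col6a1 on the other. None of 8 cell cycle and p53 pathway genes had more H3K27me3 (median -0.42), and Ccnb1, a mitotic cyclin (-1.26 ± 0.32), and E2f2, a cell cycle transcription factor (-0.92 ± 0.35), had more H2AK119ub1, while Mdm2 did not pass (-0.51 ± 0.23). Of 66 genes named Zfp, 8 and 7 were called (median 0.04), led by Zfp105 (1.69 ± 0.20), Zfp423 and Zfp518a (1.56 ± 0.21). Of 10 genes picked by names like those of ribosomal proteins, Mrpl23 (0.92 ± 0.20) and Mrpl10 had more H3K27me3, and Mrpl45 (-0.71 ± 0.26) and Rps6ka4 (-1.17 ± 0.30) had more H2AK119ub1. The Rps6ka genes among them are kinases taken in by their name. Of 13 stromal markers Thy1 had more H3K27me3 (1.30 ± 0.19) and Itgav, an integrin chain, more H2AK119ub1 (-0.77 ± 0.29), while Twist2 did not pass (-0.54 ± 0.26). Of 3 blood and endothelial markers measured, 1 had more H3K27me3 (median 0.38).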

How the data were processed

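ChIP-seq was done on formaldehyde-fixed, sonicated endosteal MSCs with TruSeq libraries, per the labels' protocols. The authors deposited whole-number read counts, not normalised, in 200 bins of 50 bp over 10 kb around each gene start. Per the submitters' processing notes, the build was GRCm38 and the tools were bedtools 2.30.0, SAMtools 1.9, Picard 2.25.5, Bowtie2 2.4.5 and cutadapt 1.18. Of single-count runs under 6 bins, 98.3% were 3 bins long, so each read was counted in about 3 bins. Input libraries were not used here. Bins run in the direction of transcription, and symbols were assigned by position within 500 bp of a RefSeq start (GRCm38.p6), which named 3423 genes (87.2%), of which 3306 are autosomal. Shifting the windows by 20 kb gave a name to 125. The central 4 kb of 296 autosomal promoters overlaps that of another gene.

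Promoter counts of the 4 cKO libraries were tested between marks with edgeR 4.0.16 in R 4.3.3 (quasi-likelihood, robust dispersion), with library sizes from autosomal bins, TMM factors from 10 kb windows, filterByExpr with a minimum count of 10 and Benjamini-Hochberg adjustment at 0.05 over all promoters tested. The interaction used the 8 libraries of both genotypes. The test was tried on simulated counts. DESeq2 1.42.0 was an alternative. Log2 differences ± SE are from the fit. Chromosome-scaled CPM are divided by the median flank CPM of the gene's chromosome in the same library, relative to the median chromosome. CPM are scaled to the autosomal window total, and pseudocounts of 1 CPM were used for Pearson's r.

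Named promoters have a symbol of their own, share no 4 kb and are not predicted or receptor genes. They are the 10 of lowest p in each direction with marks not overlapping, the 10 with the best worst rank over the 4 libraries, the 6 of lowest p in each direction of the interaction, the 3 of lowest p in each list with at least 5 measured genes, and Cxcl12, Kitl, Pparg and Sox9. Other genes named with a list were chosen after their values were seen. Members, lists and rules were chosen with earlier results of these data known.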

Additional observations from a re-analysis of the deposited data

Results flagged for a closer look

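The difference between H3K27me3 and H2AK119ub1 changed between WT and cKO, by the interaction of edgeR's quasi-likelihood test, at 177 promoters in one direction and at 178 in the other. The 12 named promoters belong to these. The interaction (log2, cKO minus WT) was 2.89 at Hoxc13, 2.26 at Eya4, 2.39 at Impa2, 2.32 at Pparg, 2.14 at Hoxc11 and 2.27 at Parm1. It was -2.64 at Foxd1, -2.49 at Sema3f, -2.34 at Phf19, -2.34 at Mn1, -2.40 at Pcdh7 and -2.32 at Jag1. Both cKO libraries lay outside the WT libraries in H3K27me3 at each of these 12 promoters. None of the 12 was called relative to its own outer flanks, where the counts are lower. Flanks of promoters high in H3K27me3 held more of that mark too, so this setting divides out part of it.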

How the results depend on the processing

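The number of promoters with more H3K27me3 (706) stayed within 1.5 times its value except against own outer flanks, and that with more H2AK119ub1 (650) did not. The latter became 1005 with library totals alone, 1030 with scaling on the outer flanks, 331 with DESeq2 and 299 with a reach of 1 kb. With 1 library left out, the lone library of a mark being assumed to vary like the other mark's, the counts ran from 541 to 688 and from 155 to 770. Against own outer flanks they were 83 and 82. Scaling moved the median log2 of all promoters by -0.15 (library totals), 0.10 (factors from promoters, DESeq2) and -0.17 (outer flanks). The interaction counts (177 and 178) became 94 and 116 with a reach of 1 kb, 89 to 268 and 107 to 216 with 1 library left out, and 3 and 1 against own flanks, an alternative chosen after seeing the data. Pearson's r of 0.703 became 0.653 (reach 1 kb), 0.749 (reach 5 kb), 0.415 (own flanks), 0.507 (Spearman's rho), 0.659 (pseudocount of 5 CPM), 0.164 (above both medians), 0.601 (promoters kept by the filter, added after seeing the data) and 0.661 to 0.712 with 1 library left out. The top lists shared 37.4% at the top 20%, and 78 to 101 promoters at the top 10% with 1 library left out. The log2 difference changed sign at Twist2 with a reach of 1 kb (0.077) and, against own flanks, at Ifit1 (-0.27), Mrpl45 (0.12), Perp (-0.024), Sema3f (0.16), Zfp105 (-0.049) and Zfp423 (-0.54). The cause of these changes was not tested. Of 65 calls at named promoters in cKO, 45 were lost against own flanks and at most 12 under any other alternative.

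The labels do not tie replicate numbers of different marks together. Deviations of the same number correlated at r = 0.028 between the marks in cKO and 0.055 in WT, and there are only 2 pairs. Chromosome-scaled or without chromosomes 10 and 11, alternatives chosen after seeing the data, no count moved by over 1.5 times (613 and 513, and 157 and 154 for the interaction, without them). With the replicate block, the counts were 700 and 644, and 171 and 171 for the interaction. The H3K27me3 libraries, with a median promoter count of 147 and 126, limit the calls of low H3K27me3.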
